A study of Mus musculus with 10 samples.

Results

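A set of 35 macrophage genes was followed in whole mouse skin, out of 23282 entries measured in each library. They form 2 lists. The resident list holds 20 markers of resident or alternatively activated macrophages, and the general myeloid list holds 15 genes that most monocytes and macrophages share. The genes were selected by name with the differences between the groups in these same libraries already known, so those differences are given as a description with no test. The fit across all genes took those with a log2 value of 5 or more in 5 or more libraries. By that filter 34 of the 35 genes were tested among 11536, and Cd14 was not.

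The 10 skin libraries came from C57BL/6 mice at 5 months of age. In 5 of them, called STAT3cKO, the mice lacked STAT3 in their keratinocytes, and the other 5 were wild type (WT). The ablation is in keratinocytes only, per the labels, and the Cre line that drives it, the sex of the mice and the hair growth phase were not given in the sources used here. Whether a library stands for a mouse of its own is not said, so the errors describe spread between libraries that may be partly technical. RNA of all skin cells was sequenced from the 3′ end of transcripts (QuantSeq), and in such bulk samples fewer macrophages and less RNA per macrophage cannot be told apart.

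Skin macrophages take up dying cells, debris and tagged microbes, and they are renewed partly in place and partly from blood monocytes that enter the tissue. Resident dermal macrophages carry scavenger receptors and sugar-binding lectins on their surface, such as the mannose receptor Mrc1 and the haemoglobin receptor Cd163. Type 2 cytokines acting through the transcription factor STAT6 induce a further programme, called alternative activation, of which the secreted protein Retnla and the lectin Mgl2 are classic markers.

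Estimated depth ran from 7130610 to 18541097 reads per library. STAT3cKO 2 stood apart. It had no read for 2617 of the 11536 tested genes, against 83 to 1273 in the other libraries, and it alone lacked Xist reads and had more than 1 read of Y-linked Ddx3y, at a log2 value of 10.62. WT 3 (1273), STAT3cKO 3 (1097) and WT 5 (983) followed in that count. Stat3 itself averaged 9.72 ± 0.56 (SD, n = 5) in WT and 10.13 ± 0.48 in STAT3cKO on the log2 scale, a difference of 0.41 (limma adjusted p = 0.7). Reads from the 3′ end do not check a deletion elsewhere in the gene, and skin cells other than keratinocytes are not targeted. Genes of growing hair follicles were high in WT 4 and in STAT3cKO 1, 3 and 5, where their list mean was 8.43 to 12.93. It was 0.15 to 3.71 in the other 6 libraries, which are WT 1, 2, 3 and 5 and STAT3cKO 2 and 4. Skin markers fitted the label, with Krt5 at 11.85 to 14.40 and Col1a1 at 12.38 to 15.15 in every library.

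The macrophage label held as well. Csf1r, the receptor for macrophage growth factor, was at 8.85 to 11.65 and C1qa at 10.11 to 12.63 in all 10 libraries. Adgre1, the classic surface marker of mouse macrophages, had reads in 9 of them. Of the 350 values (35 genes in 10 libraries), 323 stood on more than 20 reads, 21 on no read and 6 on 1 to 10, with none in between. No-read values were spread unevenly, 17 in STAT3cKO and 4 in WT, and 10 of the 17 came from STAT3cKO 2. For a gene with such a value the difference of medians is given, and for some each library, since the group mean rests on it.

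**Figure D1:**
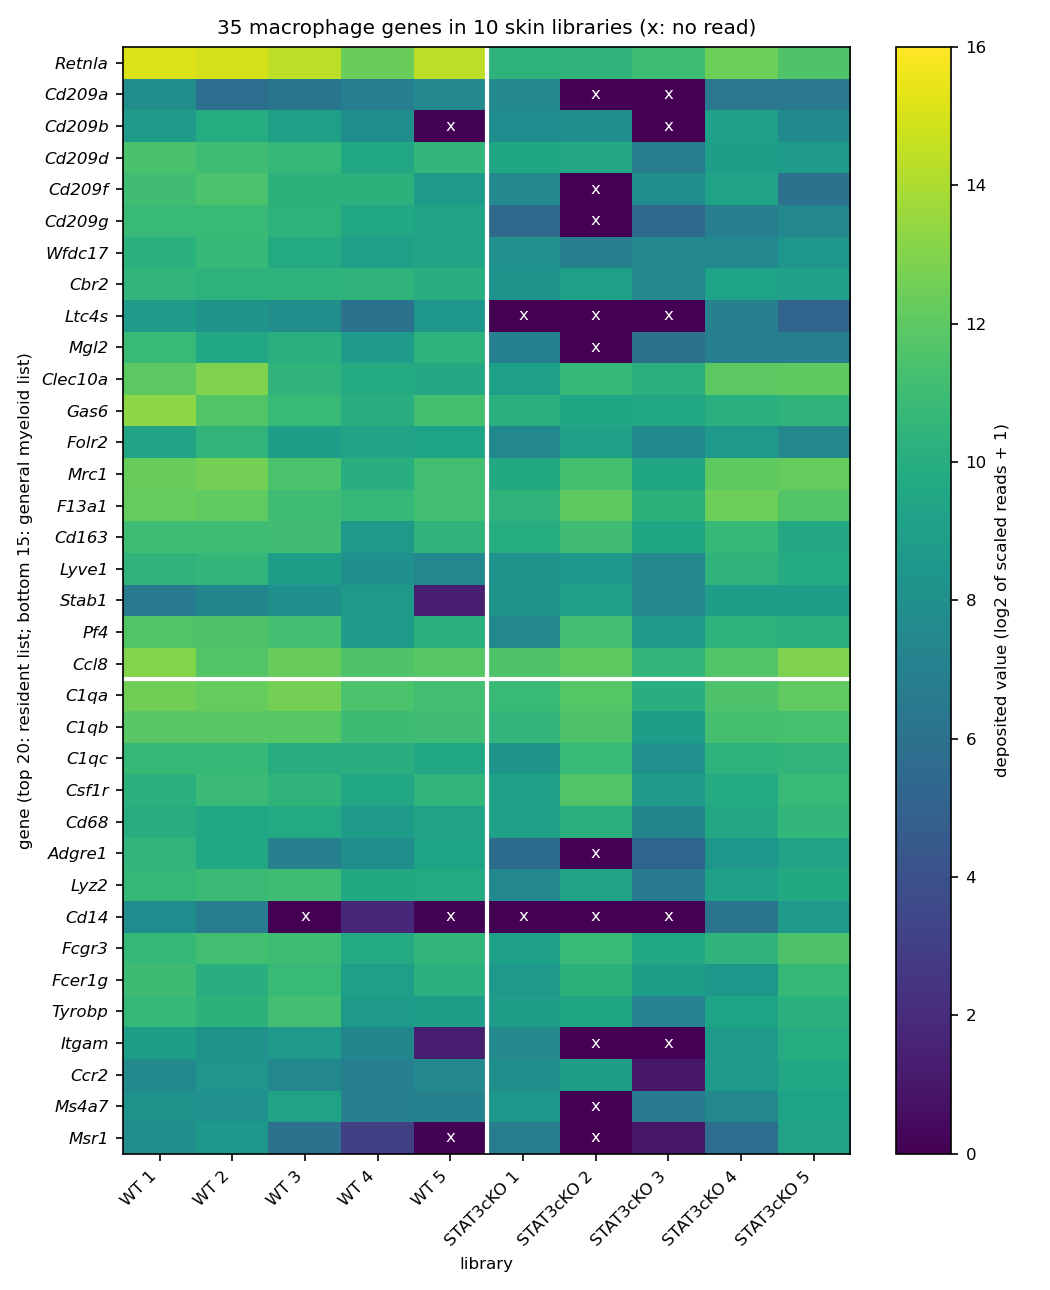
Log2 values of all 35 genes (rows) in the 10 libraries (columns), with a cross where a library had no read. The top row, Retnla, is bright in WT and darker in STAT3cKO, and 10 crosses stand in the column of STAT3cKO 2.

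Promoter sequences are shown for 6 of the genes with low values in STAT3cKO libraries: the 4 called in the fit across all genes (Retnla, Wfdc17, Cd209g and Cbr2), Mgl2, whose groups did not overlap, and Cd209f, the neighbour of Cd209g. RefSeq windows of the 250 bases before the transcript start (mouse build GRCm38.p6) were found for 27 of the 35 genes, 18 of the resident list and 9 of the general list. Clec10a, Lyve1, C1qa, Csf1r, Adgre1, Cd14, Tyrobp and Msr1 were without one. The start meant here is that of RefSeq. In the GENCODE annotation all 6 printed genes start further upstream, so each window runs into its gene. That of Cd209g lies wholly inside it (chr8:4134098-4137707). The windows of Ltc4s and Lyz2, also low in STAT3cKO, held none of the motifs searched, that of Cd209d held 1 (PU.1-type), and these 3 are not printed. Capitals mark matches on either strand to TTCNNNNGAA (the spacing that STAT6 prefers), TTCNNNGAA (that of other STAT proteins), TTGCNNAA (C/EBP) and GAGGAA (PU.1, a myeloid factor). The gene strand is printed, 5′ to 3′.
Retnla, chr16:48842359-48842608, plus strand: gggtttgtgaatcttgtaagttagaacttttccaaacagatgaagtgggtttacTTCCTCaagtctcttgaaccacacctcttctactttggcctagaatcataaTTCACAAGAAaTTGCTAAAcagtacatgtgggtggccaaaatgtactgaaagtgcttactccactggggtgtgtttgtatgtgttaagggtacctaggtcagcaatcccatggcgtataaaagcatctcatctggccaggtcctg
Wfdc17, chr11:83703806-83704055, plus strand: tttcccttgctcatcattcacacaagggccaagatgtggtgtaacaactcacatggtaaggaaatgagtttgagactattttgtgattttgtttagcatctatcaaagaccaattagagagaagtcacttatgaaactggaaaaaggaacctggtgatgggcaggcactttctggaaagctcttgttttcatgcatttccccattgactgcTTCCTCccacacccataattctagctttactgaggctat
Cbr2, chr11:120732022-120732271, minus strand: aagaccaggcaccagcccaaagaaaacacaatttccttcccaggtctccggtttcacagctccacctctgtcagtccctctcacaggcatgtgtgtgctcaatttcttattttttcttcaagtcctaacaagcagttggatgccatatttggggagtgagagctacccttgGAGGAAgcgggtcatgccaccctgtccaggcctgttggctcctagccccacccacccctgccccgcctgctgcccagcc
Mgl2, chr11:70130107-70130356, plus strand: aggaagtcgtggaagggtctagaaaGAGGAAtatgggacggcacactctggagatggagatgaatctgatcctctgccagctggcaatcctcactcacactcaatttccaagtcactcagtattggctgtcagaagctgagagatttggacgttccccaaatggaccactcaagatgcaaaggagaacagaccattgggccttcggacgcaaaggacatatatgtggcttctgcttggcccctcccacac

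Retnla was the only resident-list gene whose window held the STAT6-type letters, beginning 145 bases before the start. A C/EBP match begins 1 base after it ends, 134 bases before the start, and a PU.1-type match lies 196 bases before it. Among all 32851 mouse windows of this length, 5.85% hold the STAT6-type letters, 9.56% the C/EBP letters and 23.3% the PU.1-type letters. In the resident list 1, 3 and 10 of 18 genes held them, and in the general list 1 (Ms4a7), 2 and 5 of 9. These counts are by gene, with a match in any of its windows (31 windows for the 27 genes). The percentages are by window, so the 2 are not alike. The TTCNNNGAA letters were in 0 of the 27 genes' windows, against 7.02% of all windows. A match describes letters only, and a missing match says nothing about the factor.

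The Cd209f and Cd209g windows held no match to any of these motifs, but they resembled each other. The 2 genes lie close together on chromosome 8, on opposite strands, and their windows share an identical run of 154 bases, set in capitals here.
Cd209f, chr8:4105765-4106014, minus strand: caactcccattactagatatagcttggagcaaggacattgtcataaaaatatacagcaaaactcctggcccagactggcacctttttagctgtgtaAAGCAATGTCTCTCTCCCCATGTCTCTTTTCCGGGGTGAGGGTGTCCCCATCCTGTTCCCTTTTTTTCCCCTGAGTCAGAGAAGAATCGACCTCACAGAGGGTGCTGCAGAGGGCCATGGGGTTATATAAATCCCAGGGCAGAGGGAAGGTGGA
Cd209g, chr8:4134486-4134735, plus strand: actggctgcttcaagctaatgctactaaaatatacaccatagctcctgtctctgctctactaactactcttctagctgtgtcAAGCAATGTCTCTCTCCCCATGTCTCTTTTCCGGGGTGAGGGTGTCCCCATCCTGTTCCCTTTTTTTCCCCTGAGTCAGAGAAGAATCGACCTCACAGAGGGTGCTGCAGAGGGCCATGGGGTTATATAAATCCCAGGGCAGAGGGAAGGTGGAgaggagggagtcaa

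Retnla (chromosome 16, bases 48842551 to 48844461), a small protein secreted under alternative activation and also made in fat tissue, read 15.14, 14.98, 14.39, 12.41 and 14.40 on the log2 scale in WT 1 to 5. In STAT3cKO 1 to 5 it read 10.37, 10.40, 11.01, 12.46 and 11.58. The groups touched only where WT 4 met STAT3cKO 4, and the difference of means (STAT3cKO minus WT, as throughout) was -3.10 on the log2 scale (SE 0.54, 95% interval -4.27 to -1.93), 8.56-fold lower. WT 4 was the WT library with growing hair genes. Among the 6 libraries low in those genes the difference was -3.30, and with the hair list mean as a covariate it was -2.90, both fits chosen after seeing the data.

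Retnla values ran close to those of 2 genes of fat cells in most libraries. Adiponectin (Adipoq) read 15.30, 15.77, 15.36, 12.84 and 14.01 in WT and 11.02, 13.45, 10.55, 11.55 and 11.51 in STAT3cKO. Retnla minus Adipoq was -0.97 to 0.39 in WT and -0.65 to 0.91 in STAT3cKO 1, 3, 4 and 5, and -3.05 in STAT3cKO 2. Retnla minus resistin (Retn), its fat-cell paralogue, was 0.02 to 0.90 in WT, -0.42 to 0.64 in the same 4 STAT3cKO libraries and -3.34 in STAT3cKO 2. Retnla shares no run of 50 bases with another gene in its last 500 transcript bases, so its reads could be assigned apart from those of Retn.

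Wfdc17, a secreted macrophage protein of the whey acidic protein family, read 10.20, 10.70, 9.80, 9.11 and 9.34 in WT. In STAT3cKO it read 8.10, 6.86, 7.50, 7.48 and 8.43. Every STAT3cKO library was below every WT library, and the difference was -2.16 (SE 0.47, interval -3.15 to -1.17), 4.46-fold lower.

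The other secreted members lay nearer to each other in the groups. Gas6, a ligand that bridges dying cells to TAM receptors, was 11.41 ± 1.18 (SD, n = 5) in WT and 9.96 ± 0.40 in STAT3cKO, a difference of -1.46 (SE 0.46), with WT 1 highest at 13.25 and WT 4 inside the STAT3cKO range. The chemokine Ccl8 differed by -0.35 (SE 0.38), and F13a1, the coagulation factor subunit that dermal macrophages express, by -0.05 (SE 0.44). Pf4, a chemokine of platelets and of resident macrophages, differed by -1.10 (SE 0.74) and ranged over 8.76 to 11.68 in WT and 7.46 to 11.16 in STAT3cKO. Its list of platelet and megakaryocyte markers, 7 genes with a mean of 1.36 to 4.10 in WT and 1.67 to 4.36 in STAT3cKO, overlapped fully, with Tubb1 at no read in all 10 libraries; its part in the Pf4 values was not tested.

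Differences of the 8 lectins ran from -5.09 to -0.18. Cd209g, a C-type lectin of the DC-SIGN family, read 10.78, 10.84, 10.37, 9.58 and 9.19 in WT. In STAT3cKO it read 5.50, 0.06, 5.54, 6.84 and 7.38, where 0.06 in STAT3cKO 2 is no read. All STAT3cKO libraries were lower, the medians differed by -4.84 and the means by -5.09 (SE 1.15), or -3.84 without STAT3cKO 2.

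Cd209f, its neighbour, read 11.08, 11.44, 10.28, 10.28 and 8.71 in WT and 7.50, 0.06, 7.87, 9.23 and 6.02 in STAT3cKO. The groups overlapped through WT 5 and STAT3cKO 4, and the medians differed by -2.78. Despite the run shared by their RefSeq windows, Cd209f minus Cd209g was not a constant: STAT3cKO 1 read 7.50 for Cd209f and 5.50 for Cd209g, while STAT3cKO 5 read 6.02 and 7.38. Of the 50-base runs in the last 500 bases of Cd209f transcripts, 37.1% also occur in Cd209g transcripts, so reads there could belong to either, whereas the end of Cd209g is its own.

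Cd209d was lower too, with 11.39, 11.04, 10.68, 9.60 and 10.57 in WT and 9.41, 9.63, 6.70, 8.95 and 8.69 in STAT3cKO, a difference of -1.98 (SE 0.51). Only STAT3cKO 2 exceeded a WT library, WT 4. Cd209a had reads in all WT libraries (5.87 to 7.88) and in STAT3cKO 1, 4 and 5 (6.33 to 7.50), and none in STAT3cKO 2 and 3. Its medians differed by -0.49, so the mean difference of -2.81 (SE 1.75) came from the 2 libraries without a read. Cd209b had no read in WT 5 and STAT3cKO 3 and read 7.59 to 9.88 in the other 8, with medians differing by -1.01.

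The pair Mgl2 and Clec10a, which encode the related galactose lectins CD301b and CD301a from neighbouring genes on chromosome 11, parted. Mgl2 read 10.85, 9.52, 10.16, 8.77 and 10.37 in WT and 7.04, 0.06, 5.94, 6.92 and 6.85 in STAT3cKO, with no read in STAT3cKO 2. Clec10a read 11.97, 12.91, 10.40, 9.84 and 9.63 in WT and 9.04, 10.68, 10.15, 11.98 and 12.02 in STAT3cKO. All STAT3cKO libraries were below WT in Mgl2, with medians differing by -3.31, while the Clec10a groups overlapped over most of their range, with a difference of -0.18 (SE 0.76, interval -1.85 to 1.5).

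Within a library Mgl2 minus Clec10a was -3.39 to 0.74 in WT and -10.62 to -2.0 in STAT3cKO, so STAT3cKO 1 (-2.0) lay inside the WT range. The mannose receptor Mrc1 differed by -0.57 (SE 0.64) and also overlapped. Mgl2 and Clec10a share some 3′ sequence: 8.52% of the 50-base runs at the end of Mgl2 transcripts and 13.8% of those of Clec10a occur in the other.

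**Figure D2:**
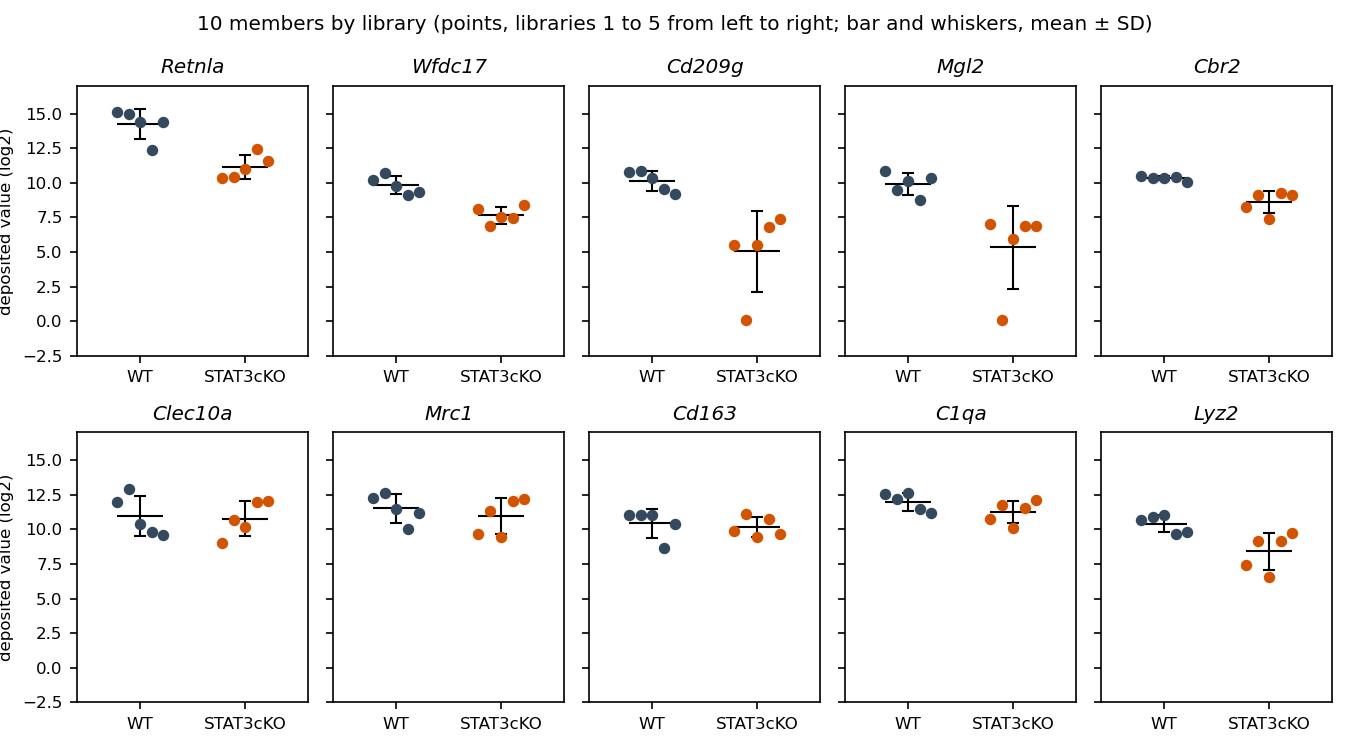
Log2 values of 10 genes (points, libraries 1 to 5 from left to right in each group; bar and whiskers, mean ± SD, n = 5). In Wfdc17, Cd209g, Mgl2 and Cbr2 every STAT3cKO point lies below every WT point, and in Clec10a, Mrc1, Cd163 and C1qa the groups overlap.

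Both enzymes of the resident list were low in STAT3cKO. Cbr2, a carbonyl reductase, read 10.52, 10.35, 10.37, 10.42 and 10.07 in WT, the tightest group of any member, and 8.24, 9.12, 7.40, 9.26 and 9.14 in STAT3cKO. The groups did not overlap, with a difference of -1.71 (SE 0.40), 3.28-fold lower. Ltc4s, the synthase of the lipid mediator leukotriene C4, read 8.75, 8.30, 7.93, 6.06 and 8.4 in WT, and in STAT3cKO it had no read in 3 libraries and 6.94 and 5.13 in STAT3cKO 4 and 5. Only WT 4 lay within the STAT3cKO range, and the medians differed by -8.24, a size set by the libraries without a read. Mast cells make Ltc4s as well, and their 9 markers had a mean of 5.81 to 8.02 in WT and 4.58 to 9.29 in STAT3cKO, with 4 positive and 3 negative differences among the 7 tested genes and none called. Of these, Mcpt4 differed by 0.32 (limma adjusted p = 0.875), Cma1 by -0.81 (adjusted p = 0.544), Cpa3 by -2.12 (adjusted p = 0.317) and Hdc, with no read in WT 5, by 2.94 (adjusted p = 0.469). Their part in the Ltc4s values was not tested.

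Uptake receptors did not move as one group. Folr2, the folate receptor of resident macrophages, read 9.33, 10.47, 8.99, 9.35 and 9.28 in WT and 7.46, 9.13, 7.63, 8.65 and 7.53 in STAT3cKO, a difference of -1.41 (SE 0.48) with STAT3cKO 2 above WT 3. Cd163 differed by -0.27 (SE 0.47) and the hyaluronan receptor Lyve1 by -0.22 (SE 0.69). Stab1, a scavenger receptor of macrophages and of vessel lining, was the only tested member with a higher mean in STAT3cKO, by 2.14 (SE 1.18). It read 6.65, 7.35, 8.01, 8.64 and 1.36 in WT, where 1.36 is about 1 read, and 7.50 to 9.10 in STAT3cKO, and its difference was 0.88 without WT 5.

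Lyve1 and Stab1 are also made by lymphatic endothelium. The 7 markers of those vessels had a mean of 5.77 to 7.42 in WT and 7.07 to 8.35 in STAT3cKO, with a positive difference in 5 of the 6 tested genes and none called. Their part in the Lyve1 and Stab1 values was not tested.

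In the general myeloid list Adgre1 and Lyz2 had the largest differences of means, and the other tested genes had -1.68 to -0.13. The 3 chains of complement C1q are made by tissue macrophages. C1qa read 12.54, 12.21, 12.63, 11.48 and 11.16 in WT and 10.75, 11.79, 10.11, 11.53 and 12.12 in STAT3cKO. It differed by -0.75 (SE 0.39), C1qb by -0.81 (SE 0.44) and C1qc by -0.62 (SE 0.51), each with overlapping groups and the lowest value of all in STAT3cKO 3 (8.12 for C1qc). Csf1r differed by -0.27 (SE 0.47). Ccr2, the receptor that brings monocytes out of the blood, read 6.91 to 8.35 in WT, 7.96 to 9.50 in STAT3cKO 1, 2, 4 and 5 and about 1 read in STAT3cKO 3. Its medians differed by 1.18, and its means by -0.33 (SE 1.33), or 1.21 without STAT3cKO 3.

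Lyz2, the lysozyme of myeloid cells, was lower in most STAT3cKO libraries. It read 10.67, 10.89, 11.03, 9.69 and 9.80 in WT and 7.46, 9.19, 6.55, 9.18 and 9.71 in STAT3cKO, a difference of -2.0 (SE 0.55), with only STAT3cKO 5 reaching the WT range. Lyz2 shares 16.9% of its 3′ 50-base runs with the neighbouring lysozyme gene Lyz1, which differed by -0.76 (limma adjusted p = 0.582), and Lyz2 minus Lyz1 was 0.08 to 1.02 in WT and -2.02 to 0.00 in STAT3cKO. Adgre1 read 10.53, 9.55, 6.98, 7.95 and 9.27 in WT and 5.68, 5.15, 8.45 and 9.32 in STAT3cKO 1, 3, 4 and 5, with no read in STAT3cKO 2 and medians differing by -3.59. These groups overlapped.

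Cd68, a lysosomal membrane protein, differed by -0.13 (SE 0.52), the smallest of the general list. Among Fc receptor genes Fcgr3 differed by -0.38 (SE 0.43), and the signalling adaptors Fcer1g and Tyrobp by -0.83 (SE 0.48) and -0.97 (SE 0.59). The integrin subunit gene Itgam, the membrane protein gene Ms4a7 and the scavenger receptor gene Msr1 each had no read or about 1 read in at least 1 library, and their medians differed by -0.68, -0.69 and -0.18. Cd14, the lipopolysaccharide co-receptor, had no read in 2 WT and 3 STAT3cKO libraries and read 8.57 at most, in STAT3cKO 5. Its medians, 1.77 in WT and 0.06 in STAT3cKO, lay at or near no read and differed by -1.71.

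Set side by side, the resident list had a median difference of -1.43 over its 20 tested genes and the general list -0.78 over its 14, where all 11536 tested genes had a median of -0.16. With Cd14 included the general median was -0.75. Without STAT3cKO 3 the general median was -0.37, and in the 6 libraries low in hair genes the resident median was -0.88 and the general -0.69. A negative difference was found for 19 of the 20 and for all 14, against 56.2% of all tested genes. In the fit across all genes (limma, Benjamini-Hochberg adjusted p under 0.05) 4 resident genes were called lower, Retnla, Cd209g, Wfdc17 and Cbr2, and 0 general genes, where 0.459% of all tested genes were called lower and 0.988% in either direction. At an unadjusted p under 0.05 these counts were 10 and 2, against 10.9% of all tested genes. Groups did not overlap for 4 members (Cd209g, Wfdc17, Cbr2 and Mgl2), all lower in STAT3cKO, against 1.72% of tested genes with all STAT3cKO libraries lower and 1.71% with all higher. The genes were selected with these differences known, and nothing is read from the shares. Without STAT3cKO 2 and WT 3 the called members were 2, Cd209g and Mgl2. Leaving out WT 2 gave 0, and leaving out WT 1, WT 3, STAT3cKO 1 or STAT3cKO 3 left Retnla as the 1 call; without WT 5 there were 2.

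**Figure D3:**
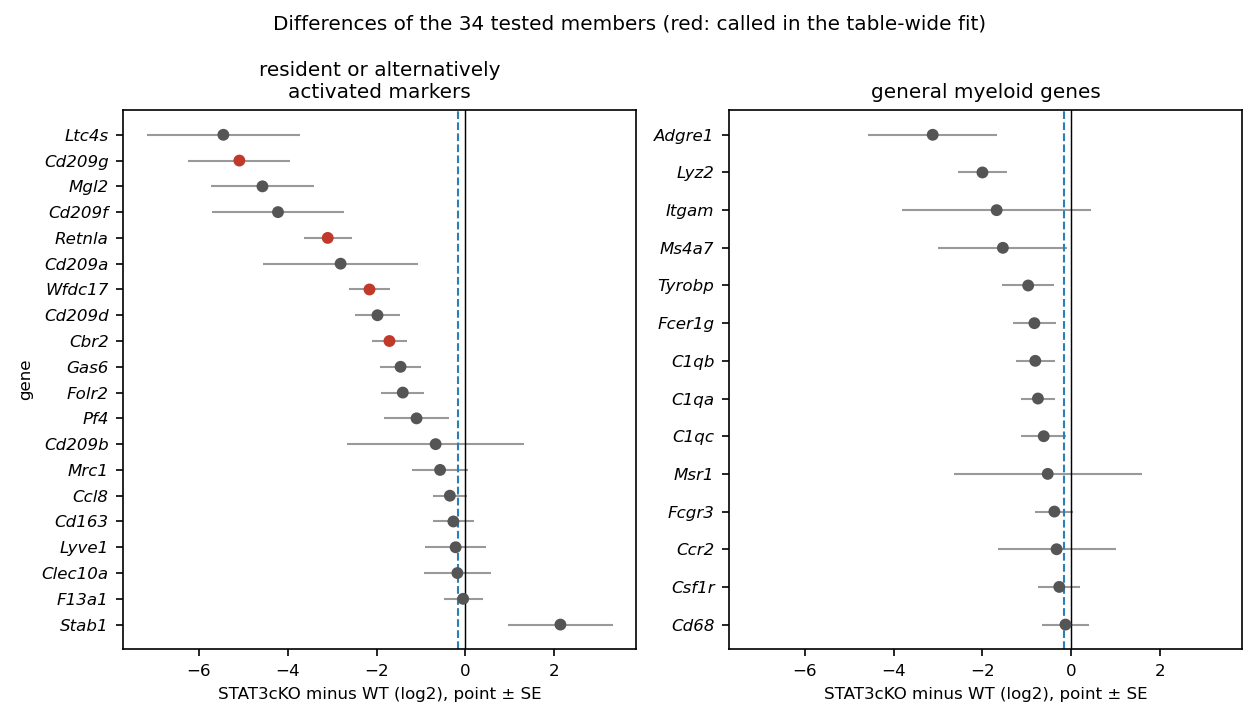
Differences of the 34 tested genes (STAT3cKO minus WT on the log2 scale, point ± SE), the resident list on the left and the general list on the right, with red for called genes and a dashed line at the median of all tested genes, -0.16. The resident list spreads from Ltc4s at -5.45 to Stab1 at 2.14, and the general list from Adgre1 at -3.12 to Cd68 at -0.13.

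Library by library, the median of the resident list was 10.94, 10.94, 10.37, 9.46 and 9.85 in WT and 8.23, 9.13, 7.56, 9.24 and 9.04 in STAT3cKO. The general list median was 10.53, 10.07, 9.96, 8.84 and 9.35 in WT and 8.54, 9.44, 7.08, 9.18 and 10.23 in STAT3cKO. The resident medians did not overlap and the general ones did. Within a library the resident median minus the general median was 0.40 to 0.88 in WT and -0.31, -0.31, 0.49, 0.07 and -1.19 in STAT3cKO, so STAT3cKO 3 lay inside the WT range. The lowest gap was in STAT3cKO 5, the library with the highest values of the inflammatory genes Il1b (12.02), S100a8 (13.11) and Saa3 (15.76). STAT3cKO 1 and 2, each with a gap of -0.31, read 7.68 and 9.58 for Il1b, 6.5 and 11.48 for S100a8, and 8.11 and 8.07 for Saa3. A link between the gap and these genes was not tested.

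Relative to the C1q genes of the same library, resident genes differed among themselves. Cbr2 minus the mean of the 3 C1q genes was -1.27 to -0.44 in WT and -2.24 to -1.60 in STAT3cKO, and Cd209g minus that mean was -1.40 to -0.78 in WT and -11.30 to -3.52 in STAT3cKO. These groups did not overlap, nor did those of Mgl2 (-2.10 to -0.21 and -11.30 to -2.81). Retnla minus the mean was 1.55 to 3.81 in WT and -0.97 to 1.96 in STAT3cKO, and Wfdc17 was -1.74 to -0.93 and -4.51 to -1.55. Both of these overlapped, as did Cd209d, Cd209f and Folr2. Mrc1 minus the same mean was -0.85 to 1.0 in WT and -0.16 to 0.97 in STAT3cKO, F13a1 was -0.43 to 0.54 and 0.39 to 1.38, and Cd163 was -2.24 to -0.20 and -1.67 to 0.38. These 3 overlapped, with none of them lower on average in STAT3cKO. Lyz2 of the general list behaved like Cbr2, with -1.16 to -0.44 in WT and -2.5 to -1.60 in STAT3cKO.

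Fat-cell markers were lower on average in STAT3cKO too. Their 15 genes had a list mean of 12.88, 12.76, 12.73, 10.79 and 11.29 in WT and 9.53, 10.98, 8.38, 10.45 and 9.24 in STAT3cKO. Of the 15, 14 had a negative difference, with a median of -2.22. An unadjusted p under 0.05 (limma) was found for 13, against 10.9% of all tested genes. The list was chosen with earlier results of these data known, and nothing is read from that share. After adjustment 1 was called, Car3, an enzyme abundant in fat cells, at -3.06 (SE 0.56, limma adjusted p = 0.0209, lower in 5 of 5 STAT3cKO libraries; adjusted p up to 0.0729 with 1 library left out, and 0.0216 in the 6 libraries low in hair genes). Adipoq differed by -3.04 (adjusted p = 0.068, or 0.00121 with the hair covariate and 0.182 in the 6 libraries low in hair genes). The lipid droplet gene Plin1 differed by -3.79 (adjusted p = 0.299), with no read in STAT3cKO 3. WT 4 was lowest of the WT libraries and STAT3cKO 3 lowest of all, both in fat-cell markers and in the median of each macrophage list. In STAT3cKO 5, however, fat-cell markers were second lowest (9.24) while the general list median was the highest of STAT3cKO (10.23). The part of fat-cell RNA in the macrophage values was not tested.

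**Figure D4:**
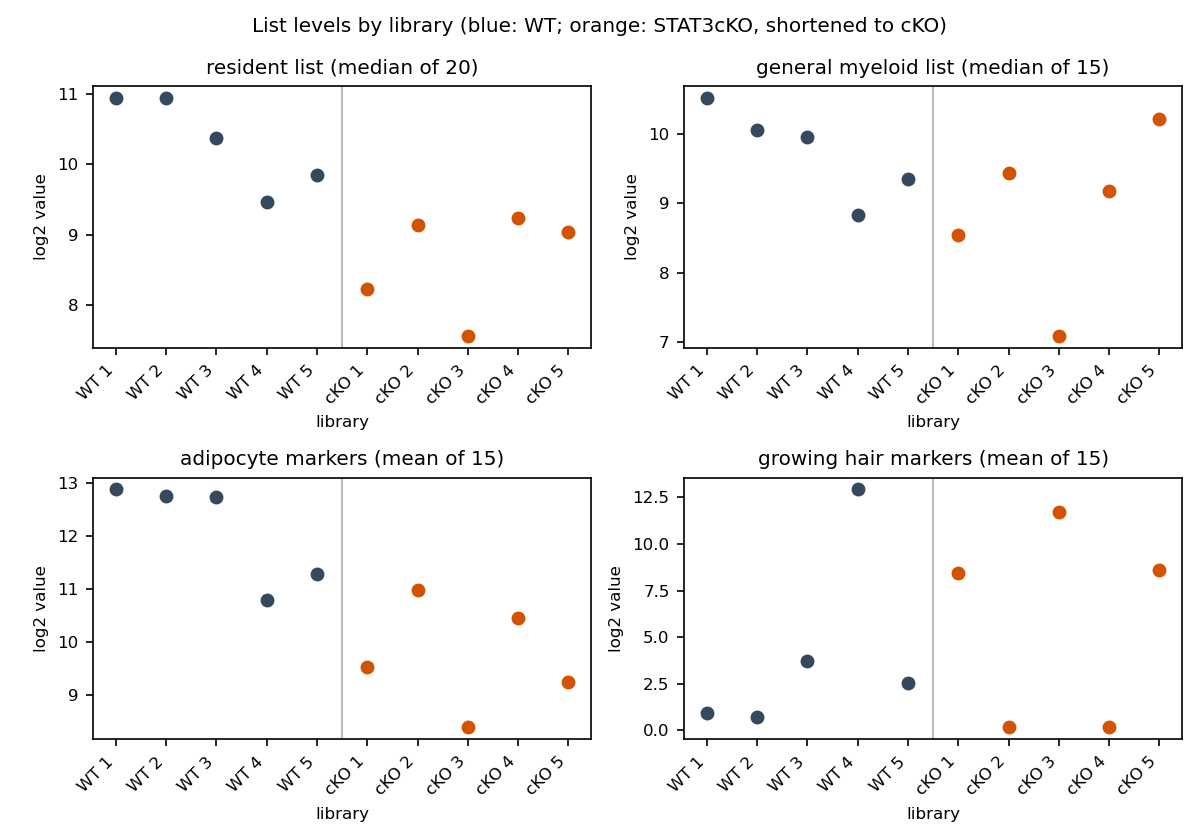
Levels of 4 lists by library on the log2 scale: the medians of the resident and general lists and the means of 15 fat-cell and 15 growing hair markers. Fat-cell markers and both macrophage lists are low in STAT3cKO 3, where hair markers are high (11.74).

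Markers of other cells that share member genes were also read. Dendritic cells express Cd209a, Mgl2 and Clec10a, and their markers were listed together with those of Langerhans cells. Of the 14 markers in that list 10 were tested, 8 with a negative difference, and none was called. The list mean was 6.29 to 8.71 in WT and 5.20 to 8.28 in STAT3cKO. The class II genes H2-Aa and H2-Eb1, which macrophages express too, differed by -2.52 (SE 0.55, adjusted p = 0.0592) and -2.0 (SE 0.55, adjusted p = 0.118). In the 6 libraries low in hair genes both were called, at adjusted p = 0.000118 and 0.000545, and with the hair covariate neither was, at 0.11 and 0.175. The STAT3cKO side of those 6 is STAT3cKO 2 and 4 only. STAT3cKO 2 had the lowest value of all 10 libraries in both genes (9.92 and 8.18). Cd207, with no read in 1 WT library and 2 STAT3cKO libraries, differed by -1.32 (adjusted p = 0.838) and Epcam by 0.91 (adjusted p = 0.458).

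Eosinophil markers, 8 genes of which 2 were tested, had a list mean of 2.17 to 4.94 in WT and 0.21 to 2.48 in STAT3cKO. Ear2 differed by -5.20 (adjusted p = 0.172), with no read in 2 STAT3cKO libraries. Ear1 differed by -2.75 (adjusted p = 0.565), with no read in 1 STAT3cKO library. Siglecf, not tested, had no read in any STAT3cKO library and in 2 WT libraries. Neutrophil markers (9 genes, list mean 2.92 to 4.36 in WT and 1.89 to 5.98 in STAT3cKO) were highest in STAT3cKO 5. Of the 9, 6 had a lower STAT3cKO mean, and the median difference was -1.12. The 2 tested genes were positive, S100a8 differing by 1.47 (adjusted p = 0.672) and S100a9 by 3.29 (adjusted p = 0.521). The part of these cells in the member values was not tested.

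Fibroblast markers had 1 called gene of 10, the matrix protein gene Dpt, at -1.53 (SE 0.33, adjusted p = 0.0287; up to 0.103 with 1 library left out, and 0.0966 in the 6 libraries low in hair genes), with a list mean of 11.77 to 12.36 in WT and 10.94 to 12.89 in STAT3cKO. Col1a1 and Col1a2 differed by 0.38 and 0.35 (adjusted p = 0.785 and 0.781). All 10 keratinocyte markers had positive differences, with a list mean of 11.50 to 12.40 in WT and 12.36 to 13.63 in STAT3cKO. Krt1 differed by 3.44 (adjusted p = 0.054) and Lor by 1.96 (adjusted p = 0.0618), and Krt5 by 0.62 and Krt14 by 1.3 (adjusted p = 0.577 and 0.25). Values here are scaled within a library, and the part of a larger keratinocyte share in the macrophage values was not tested.

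Lymphocyte and muscle markers complete the picture of other cells. T and NK cell markers had a list mean of 2.55 to 5.21 in WT and 0.22 to 4.42 in STAT3cKO over 8 genes. Cd3g differed by -4.16 (adjusted p = 0.364), with no read in 2 STAT3cKO libraries. Nkg7 differed by -3.32 (adjusted p = 0.567), with no read in 3 STAT3cKO libraries and 1 WT library, and Cd3d and Cd3e were not tested. Of the 5 B cell markers 0 to 3 had reads in a library, Cd79a in none. The antibody chain gene Jchain, the 1 that was tested, differed by -3.46 (adjusted p = 0.419), with no read in 1 STAT3cKO library. Muscle markers had a list mean of 10.61 to 14.49 in WT and 8.15 to 13.69 in STAT3cKO, with Ckm at -2.81 (adjusted p = 0.384) and none of 10 called.

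Genes around the members in the same pathways were tested across the whole table. Among genes of type 2 signals and alternative activation, 16 of 27 were tested, 11 had a negative difference, the median was -1.06, and 1 was called. Alox15, a lipoxygenase that type 2 cytokines induce, read 10.49, 8.12, 8.52, 7.84 and 9.02 in WT, 5.81 in STAT3cKO 5, and had no read in STAT3cKO 1 to 4. It fell by 7.61 on the log2 scale (SE 1.62, limma adjusted p = 0.0277), a size set by the 4 libraries without a read, and it was lower in 5 of 5 STAT3cKO libraries. The call held in 3 of the 10 fits with 1 library left out (those without WT 4, STAT3cKO 2 or STAT3cKO 5), with an adjusted p of up to 0.114, and was lost in the 6 libraries low in hair genes (adjusted p = 0.0794). Alox15 is a gene of eosinophils as well as of macrophages.

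In the 7 other pathway lists limma called none, while single genes had an unadjusted p under 0.05. Of the growth factor and transcription factor genes 12 were tested, with a median of 0.59 and 3 at that unadjusted level. Cebpb, a transcription factor of myeloid cells and of keratinocytes, was at 9.11 ± 1.08 (SD, n = 5) in WT and 10.77 ± 0.81 in STAT3cKO, higher in all 5 (1.66, SE 0.50, adjusted p = 0.144). Monocyte chemokines and receptors had a median of -0.65 over 13 genes and 0 at the unadjusted level, with Ccl11 at -1.10 (adjusted p = 0.477) and Ccl6 at -0.79 (adjusted p = 0.559).

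Genes for taking up dying cells had a median of -0.25 over 12 and 2 at the unadjusted level. Cd36 differed by -0.79 (adjusted p = 0.345) and Gpnmb by 1.52 (adjusted p = 0.356). The complement list had a median of -0.42 over 14 and 1 at that level, Cfd, the fat-cell protease adipsin, at -2.45 (adjusted p = 0.24), beside C1ra at -0.85 (adjusted p = 0.524). Lysosomal genes had a median of -0.04 over 18 and 4 at that level, with the cholesterol carrier gene Npc2 at -1.23 (adjusted p = 0.176) and the protease gene Ctsd at 0.62 (adjusted p = 0.332).

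Of the 16 inflammatory genes 6 were tested, with a median of 0.47 and 2 at the unadjusted level. Nfkbia, the inhibitor of NF-kappaB, was higher in all 5 STAT3cKO libraries at 0.96 (SE 0.28, adjusted p = 0.125). Its adjusted p was 0.0208 with the hair covariate and 0.178 in the 6 libraries low in hair genes. Tlr4 differed by -3.68 (adjusted p = 0.449), with no read in 2 STAT3cKO libraries. The list of paralogues and gene neighbours had a median of -0.94 over 12 and 2 at that level, Retn and Cd209c. Retn differed by -2.22 (adjusted p = 0.365, or 0.0452 with the hair covariate and 0.288 in the 6 libraries low in hair genes). Cd209c differed by -4.33 (adjusted p = 0.458), with no read in 4 STAT3cKO libraries and 1 WT library. Cd209e, which lies between members of the Cd209 cluster, differed by -2.98 (adjusted p = 0.521) and had no read in STAT3cKO 2.

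The way reads could be shared touches other members too. Exons of Folr2, Csf1r, Ltc4s, Gas6, F13a1 and Stab1 overlap a gene on the other strand, and those of Itgam overlap a gene on the same strand, in the GENCODE annotation of this build. Of the 3′ 50-base runs of Folr2, 60.6% also lie in Gm10602, and for Itgam 30.1% lie in Gm49368. Csf1r shares 20% with Hmgxb3, Ltc4s 18.6% with Gm26542 and Cbr2 14.8% with Gm11771. Whether the counting used strand was not given in the sources used here, so values of these genes are uncertain to that extent.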

How the data were processed

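Whole skin of 10 libraries was analysed, and groups were taken from the sample titles. For each library the authors deposited a table of gene symbols and values. Bowtie2, bedtools and the build mm10 are named in the submitters' processing notes, with versions not given in the sources used here. Deposited values behave as log2 of scaled reads plus 1, read from the values, since no header names a unit. Low values lay at multiples of 1 read: 88.8 to 100% of values of up to 20 reads were whole within 0.15 of a read. Values under 0.5 of a read count as no read. Estimated depth was 7130610 to 18541097 reads, which gives counting error only.

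Each table held 23282 entries, 5996 of them at 0 in every library, and 44 repeated symbols. Genes at 5 or more in at least 5 libraries were fitted with limma 3.58.1 in R 4.3.3 (group only, mean trend, robust estimation, Benjamini-Hochberg adjustment over 11536 genes). All adjusted p-values are limma's. Differences (STAT3cKO minus WT) are on the authors' deposited log2 scale, and folds are 2 to the power of that difference. Where a library has no read, the size depends on the pseudocount. With 16 in place of 1, Ltc4s differed by -3.05 in place of -5.45. The members and all gene lists were chosen with earlier results of these data known. Named genes were all members, the called genes of each other list or else its 2 genes with the lowest p, the first 2 markers of each cell type list, and genes set beside a member, of which Il1b, S100a8, Saa3, Lyz1, Cd209e and Retnla minus Adipoq were chosen after their values were seen. A result that this rule would name is not reported here. Gene positions and transcripts are GENCODE release M21 (GRCm38). Plots used matplotlib 3.10.9 and Python 3.11.15.

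Alternatives covered the filter, the scaling, the pseudocount, the variance model, array weights, depth, a replicate block, libraries left out and, added after seeing the data, 2 treatments of the hair growth genes.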

Additional observations from a re-analysis of the deposited data

Results flagged for a closer look

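In 11 of 68 groups of 5 libraries (34 genes in 2 groups), 1 library stood apart from the other 4 by Dixon's criterion (gap over range above 0.71), which chance meets in about 1 of 20 groups. In 5 of the 11 the library had no read.

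In WT 4 a pair of values was low: Retnla at 12.41 against 14.39 to 15.14, and Cd163 at 8.62 against 10.39 to 11.07. In WT 5, Cd209b at 0.08 had no read, and Stab1 and Itgam, both at 1.36, had about 1 read. Folr2 in WT 2 was high at 10.47 against 8.99 to 9.35. In STAT3cKO 2, Cd209g, Mgl2 and Ms4a7 were at 0.06, no read. In STAT3cKO 3, Cd209b at 0.01 had no read and Ccr2 at 1.06 about 1 read.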

How the results depend on the processing

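Of 779 differences of the 34 tested members under 23 alternatives, 775 moved by less than the spread between libraries. Leaving out 1 of the 5 libraries of a group cannot move a difference that far. A changed filter, a replicate block or a fit without trend and robust estimation leaves the difference as it was. For those alternatives the count is therefore no check. The calls of Alox15, Car3 and Dpt were lost in 33 of 69. The sign was negative under every alternative for 14 of 20 resident and 6 of 14 general genes. The number of negative members ranged from 24 to 33. Members' calls depended on the fit: 1 without a filter, 0 without trend and robust estimation, 9 with array weights, 2 without STAT3cKO 2 and WT 3, 1 in the 6 shallower libraries and 2 in the 6 low in hair genes (against 4), and 0 to 5 when 1 library was left out; the cause was not tested.

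The replicate numbers did not pair the libraries (correlations -0.15 to 0.02), and with a replicate block 0 members, 34 higher and 32 lower genes were called. Over all genes, 61 were called higher and 53 lower. Counts of higher and lower calls were 95 and 81 after quantile normalization, 13 and 31 without trend and robust estimation, 202 and 173 with array weights, and 12 and 4 in the shallower libraries. With a pseudocount of 16, 85 were lower and 90 higher, in the 4 deeper libraries 92 lower, and in those low in hair genes 19 higher. With 1 library left out 29 to 96 were higher and 24 to 111 lower. At equal summed values the split was 76 higher and 39 lower, and the median of all genes moved from -0.16 to -0.05. The resident median minus the general median was -0.14 in the shallower libraries and -0.19 in those low in hair genes, against -0.65, and -0.96 to -0.37 with 1 library left out. Counts of tested genes with no read did not follow depth alone. WT 1, at an estimated 16816122 reads, had 742 and WT 4, at 9517206, had 83. The part of depth in values near no read was not tested.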
